A study of Mus musculus with 35 samples.

Results

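Pan-neuronal and synaptic genes are the genes that most neurons switch on whatever their subtype. A named list of 34 such genes was followed here, of the 23366 genes in the RNA count table, and all 34 were found in it by symbol. They fall into 5 RNA-binding proteins, 9 cytoskeletal proteins, 2 transcription factors, 10 synaptic vesicle and release proteins, 5 proteins of dense-core granules and 3 proteins of membranes and signalling. Ion channels are not among the 34 and were taken from a separate list of 42 genes. The 34 genes were counted in cranial neural crest of mouse embryos at stage E12.5, sorted alive for the red reporter Rosa-Tomato, which Wnt1-Cre switches on. Utx (Kdm6a), an X-linked gene for a histone H3K27 demethylase, is removed by the same Cre in the knockout embryos. The 6 RNA libraries hold 2 wild-type samples (WT Wnt1-Cre:wt, male; wt1 and wt2), 2 male knockouts (Utx fl/y, Wnt1-Cre; mko1 and mko2) and 2 female knockouts (Utx fl/fl, Wnt1-Cre; fko1 and fko2). All groups carry Wnt1-Cre and Rosa-Tomato. There was no wild-type female, so in the female knockout sex and genotype cannot be told apart. The labels do not say that the libraries came from separate embryos, and the p-values then measure only the spread between these samples.

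In a differentiating neuron, RNA-binding proteins of the Elavl and Celf families change how neuronal messages are spliced, stabilised and translated, while doublecortin, tau and class III tubulin build the axon and its growth cone. Synaptic vesicles carry fast transmitter and fuse through Snap25 and Vamp2 under the calcium sensor Syt1. Dense-core granules carry peptides and hold the granins and the Ptprn proteins. Wnt1-Cre marks the neural crest, which gives rise to facial mesenchyme, Schwann cells and part of the cranial sensory ganglia, and it also marks the dorsal neural tube and midbrain from which the crest leaves. In bulk RNA from such a mixture, fewer cells of a type and less RNA per cell cannot be told apart.

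The gene-assigned reads numbered 14513993 to 16350892 per library. Mesenchyme markers of the crest were present in all 6 libraries, with a summed level of 4190 to 5180 CPM (read counts scaled to library size, per 1e+06 reads) over 17 genes, and 11 Schwann and glial markers, Sox10 among them, summed to 453 to 565 CPM. Kdm6a itself lay at 45.6 and 51.5 CPM in wild type, 40.5 and 31.9 in male knockouts and 52.9 and 62.4 in female knockouts. A conditional allele loses only part of the gene, so these whole-gene counts do not check the deletion. The ribosomal precursor Rn45s took 0.937% and 0.383% of gene reads in wild type and 2.99% to 4.97% in the knockouts. The share of reads that the counter left outside genes divided the libraries into a set near 21.3% to 22% (wt1, mko2, fko1) and a set near 27.5% to 27.8% (wt2, mko1, fko2), with 1 library of each genotype in each set. Within-set values are given below. In a further fit, library totals that leave Rn45s out replaced TMM factors (edgeR's trimmed-mean scaling). Members called lower in the female, male and mean comparisons with wild type were then 3, 6 and 10, against 3, 7 and 12 with TMM. Over all tested genes the lower calls were 79, 218 and 648, against 119, 285 and 586.

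Upstream sequence is shown first for 5 members with a single RefSeq window. Scg5, Ptprn2 and Syn1 are among the members that fell, and Scg2 and Syp are a granule and a vesicle gene that did not pass the test. Each run is the 250 bases before the gene's start, 5′ to 3′ on the gene's strand, from RefSeq on GRCm38.p6: Scg5 at chr2:113829092-113829341 (minus strand), Ptprn2 at chr12:116485470-116485719 (plus), Scg2 at chr1:79440027-79440276 (minus), Syn1 at chrX:20920919-20921168 (minus) and Syp at chrX:7638330-7638579 (plus). Capitals mark a match to the left and right parts of the RE1 element, the site of the repressor Rest.
Scg5: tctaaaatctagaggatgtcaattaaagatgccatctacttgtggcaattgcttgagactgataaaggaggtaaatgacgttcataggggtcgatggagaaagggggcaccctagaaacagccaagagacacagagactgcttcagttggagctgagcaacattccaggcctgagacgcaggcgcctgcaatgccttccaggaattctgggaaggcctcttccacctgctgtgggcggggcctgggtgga
Ptprn2: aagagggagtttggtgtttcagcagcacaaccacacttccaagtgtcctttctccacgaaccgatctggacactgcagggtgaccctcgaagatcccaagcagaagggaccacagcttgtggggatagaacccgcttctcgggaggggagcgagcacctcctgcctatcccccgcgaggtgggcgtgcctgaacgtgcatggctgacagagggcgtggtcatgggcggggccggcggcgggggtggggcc
Scg2: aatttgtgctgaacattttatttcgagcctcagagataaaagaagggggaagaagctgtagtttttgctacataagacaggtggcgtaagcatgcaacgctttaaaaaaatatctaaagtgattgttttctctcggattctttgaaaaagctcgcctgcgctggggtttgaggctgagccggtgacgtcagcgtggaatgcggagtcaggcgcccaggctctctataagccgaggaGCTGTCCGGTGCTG
Syn1: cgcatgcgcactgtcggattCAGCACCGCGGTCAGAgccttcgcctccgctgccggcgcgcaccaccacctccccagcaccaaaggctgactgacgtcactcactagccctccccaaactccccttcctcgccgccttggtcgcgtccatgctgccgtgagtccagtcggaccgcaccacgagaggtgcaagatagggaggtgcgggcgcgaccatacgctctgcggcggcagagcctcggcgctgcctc
Syp: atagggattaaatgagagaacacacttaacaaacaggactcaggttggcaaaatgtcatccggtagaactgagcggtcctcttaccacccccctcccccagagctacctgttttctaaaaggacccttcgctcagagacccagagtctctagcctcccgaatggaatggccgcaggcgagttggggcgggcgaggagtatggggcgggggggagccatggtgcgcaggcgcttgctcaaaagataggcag

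The RE1 search used its left part CAGCACC and right part GGACAGC on both strands. With a gap of 2 bases and at most 2 mismatches, Syn1 held the match CAGCACCGCGGTCAGA, 230 bases before its start, and it was the 1 member window of 51 with such a match (1.96%), against 205 of 32851 windows of all genes (0.624%). The same parts with no gap and no mismatch were looked for after the windows had been seen. Over the whole 300-base windows, which run 50 bases past the start, only 2 of 32851 held them, and both belong to members: Scg2, in the 14 bases directly before its start, and Ptprn2, from base 7 to base 20 after its start. The 30 bases around each, with the match in capitals on the opposite strand, lie at chr1:79440019-79440048 in Scg2 and chr12:116485718-116485747 in Ptprn2.
Scg2: gccgaggaGCTGTCCGGTGCTGaaacggcc
Ptprn2: ccggtggcGCTGTCCGGTGCTGaagctcgg
Of these genes Ptprn2 and Syn1 fell in the knockouts and Scg2 did not pass the test, as given below. Scg2 had few counts, 94 to 130 per library. Only these 2 members hold the form with no gap, and its relation to the changes was not tested. The form with a gap of 2 was found only in Syn1 among the members. The E-box CAGATG, the form preferred by neurogenins and read as CATCTG on the other strand, stood in 11 of 51 member windows (21.6%) and 14.4% of all windows. Windows of 1 gene overlap, so these shares are descriptions. The 51 windows belong to 25 of the 34 members, and their median CpG count was 10 against 6 over all windows, at a median GC content of 55.6% against 52.4%.

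A part of the neuronal genes fell in the knockouts. Over the mean of the male and female knockouts against wild type, 12 of 34 fell and none rose (edgeR quasi-likelihood test, adjusted p under 0.05), where 4.04% of the 14521 tested genes fell. All 34 members passed the filter on low counts. The list was chosen with earlier results of these data known, so these counts are descriptions and not independent support. The 12 were Elavl3, Celf3, Celf4, Map2, Myt1, Syt1, Syn1, Sv2a, Scg3, Scg5, Ptprn and Ptprn2. In the male knockout alone 7 fell (Celf3, Celf4, Sv2a, Scg3, Scg5, Ptprn, Ptprn2), against 1.96% of all tested genes, and in the female knockout 3 fell (Celf3, Scg5, Ptprn2), against 0.82%. The wild-type libraries wt1 and wt2 enter both comparisons. The median log2 fold change of the 34 was -0.74 in the male knockout, -0.48 in the female knockout and -0.61 in their mean, beside 0.01 over all tested genes in each. The fitted change was negative for 34 of 34 members in the male and 33 of 34 in the female, against 48.9% and 48.7% of all tested genes.

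With 2 libraries a group the counts depended on single libraries. The 12 calls in the mean became 5 without wt2, 4 without mko1 and 20 without fko2. The 7 in the male knockout became 15 without wt1, 3 without wt2, 0 without mko1 or mko2 and 18 without fko1 or fko2. The 3 in the female knockout became 9 without wt1, 1 without mko1 or mko2 and 17 without fko2. All 3 were lost when only the female knockout and wild-type libraries entered the edgeR fit, where the adjusted p was 0.0808 for Celf3, 0.0762 for Scg5 and 0.0634 for Ptprn2, at the same fold changes. The number of lower calls over all tested genes moved in the same direction as the member count in each of these fits. DESeq2 called 19, 17 and 9 members in the mean, male and female comparisons. Over all tested genes it called 774, 606 and 384 lower, against 586, 285 and 119 in edgeR.

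**Figure D1:**
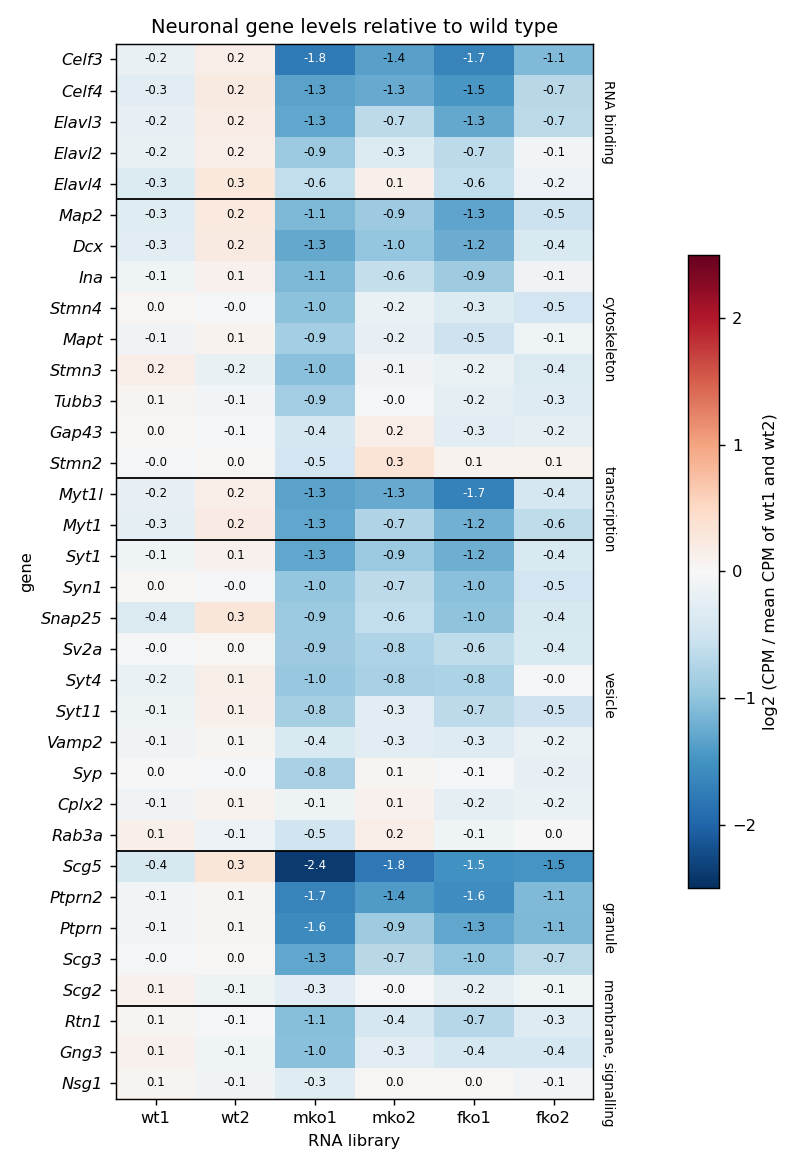
Level of each of the 34 neuronal genes in each library, as log2 of CPM over the mean CPM of wt1 and wt2 (colour and printed number), with rows grouped by role. The column of mko1 is blue in nearly every row, while Stmn2, Nsg1, Rab3a, Cplx2 and Scg2 stay near 0 in most libraries.

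Among the RNA-binding proteins 3 of 5 fell in the mean of the knockouts, with a median log2 fold change of -0.94. Celf3, a neuronal regulator of splicing, lay at 120 and 153 CPM in wild type, 40.5 and 53.2 in male knockouts and 43.1 and 63.6 in female knockouts. Wild type and knockouts did not overlap, and the 4 knockout libraries ran from 40.5 to 63.6 CPM. Its log2 fold change was -1.54 (SE 0.221, adjusted p = 0.0177, edgeR) in the male and -1.36 (SE 0.22, adjusted p = 0.034) in the female. Its relative Celf4 lay at 109 and 155 CPM in wild type, 52.2 and 54.8 in male knockouts and 47.9 and 81.6 in female knockouts. The highest knockout library, fko2, remained below both wild-type libraries. Celf4 changed by -1.3 (SE 0.253, adjusted p = 0.0384, edgeR) in the male, and its female value of -1.03 did not pass (SE 0.251, adjusted p = 0.0959).

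Elavl3 encodes HuC, an RNA-stabilising protein of postmitotic neurons. It lay at 213 and 280 CPM in wild type, 100 and 156 in male knockouts and 102 and 155 in female knockouts, again with no overlap. In each of the 2 knockout groups 1 library sat near 100 CPM and 1 near 155. It passed only in the mean of the knockouts (log2 fold change -0.94, SE 0.218, adjusted p = 0.0446, edgeR), with -0.95 in the male and -0.94 in the female. The paralogs Elavl2 (-0.47, adjusted p = 0.194, edgeR, mean of the knockouts) and Elavl4 (-0.28, adjusted p = 0.473) did not pass. Elavl2 had 72.9 and 93.9 CPM in wild type and 43.7, 66, 53.1 and 79.5 in mko1, mko2, fko1 and fko2, so that fko2 lay inside the wild-type range. Elavl4 had 110 and 169 CPM in wild type and 91.8, 153, 91.5 and 126 in the same order, with mko2 and fko2 inside that range.

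Of the cytoskeletal members 1 of 9 fell in the mean of the knockouts, and their median was -0.4. Map2, a microtubule-binding protein of dendrites, was the 1 that fell. It had 283 and 412 CPM in wild type, 159 and 186 in male knockouts and 139 and 240 in female knockouts, with no overlap and a log2 fold change of -0.94 in the mean (SE 0.222, adjusted p = 0.0477, edgeR). Dcx, the microtubule protein of migrating young neurons, had 304 and 435 CPM in wild type, 152 and 189 in male knockouts and 157 and 284 in female knockouts. All 4 knockout values were below both wild-type values, and the mean change of -0.93 missed the threshold (SE 0.234, adjusted p = 0.0566, edgeR).

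The other 7 cytoskeletal genes did not pass in any comparison with wild type. Tubb3, the class III tubulin used as a neuron marker, had 859 and 777 CPM in wild type, 450 and 793 in male knockouts and 703 and 655 in female knockouts. Here mko2 lay inside the wild-type range and mko1 far below it, so the groups overlapped (mean -0.33, SE 0.21, adjusted p = 0.325, edgeR). Stmn2, a stathmin that destabilises microtubules in growing axons, had 279 and 289 CPM in wild type and 205, 358, 303 and 303 in mko1, mko2, fko1 and fko2. It was the 1 member with a positive mean change, at 0.04 (SE 0.198, adjusted p = 0.908, edgeR). With plain totals without Rn45s, which move the median of all tested genes to -0.07, the mean change was negative for all 34. In mko1 alone Stmn2 was below both wild-type libraries.

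Gap43, the growth cone protein, had 162 and 151 CPM in wild type and 115, 175, 130 and 133 in mko1, mko2, fko1 and fko2 (mean -0.18). In the stathmins, as in Gap43, mko1 was the lowest library and mko2 the highest of the knockouts. Stmn3 had 125 and 98.5 CPM in wild type and 54.1, 105, 99.8 and 87 in the knockouts in that order (-0.38), and Stmn4 had 51.6 and 48.8 against 24.5, 45, 39.5 and 35.9 (-0.47). In Stmn4 the groups did not overlap, while in Gap43 and Stmn3 at least 1 knockout library lay above a wild-type one. Mapt, which encodes the axonal microtubule protein tau, had 153 and 172 CPM in wild type and 89.4, 141, 113 and 150 in the knockouts (-0.4). The neurofilament gene Ina had 119 and 137 CPM in wild type and 58.5, 84.4, 69.2 and 120 in the knockouts (-0.64). Mapt did not overlap, and Ina overlapped by fko2 alone.

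Both transcription factors are zinc finger proteins of the Myt1 family, and Myt1l is known for repressing the genes of other lineages in neurons. Myt1 had 90.7 and 125 CPM in wild type, 43.9 and 64.4 in male knockouts and 47.2 and 69.8 in female knockouts, and fell in the mean (-0.94, SE 0.206, adjusted p = 0.0383, edgeR). Myt1l had 34.3 and 44.6 CPM in wild type, 15.6 and 16.4 in male knockouts and 12.2 and 29.3 in female knockouts. Neither gene's groups overlapped. Myt1l had a larger mean change, -1.11, with a larger error (SE 0.277), and missed the threshold (adjusted p = 0.0551, edgeR).

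**Figure D2:**
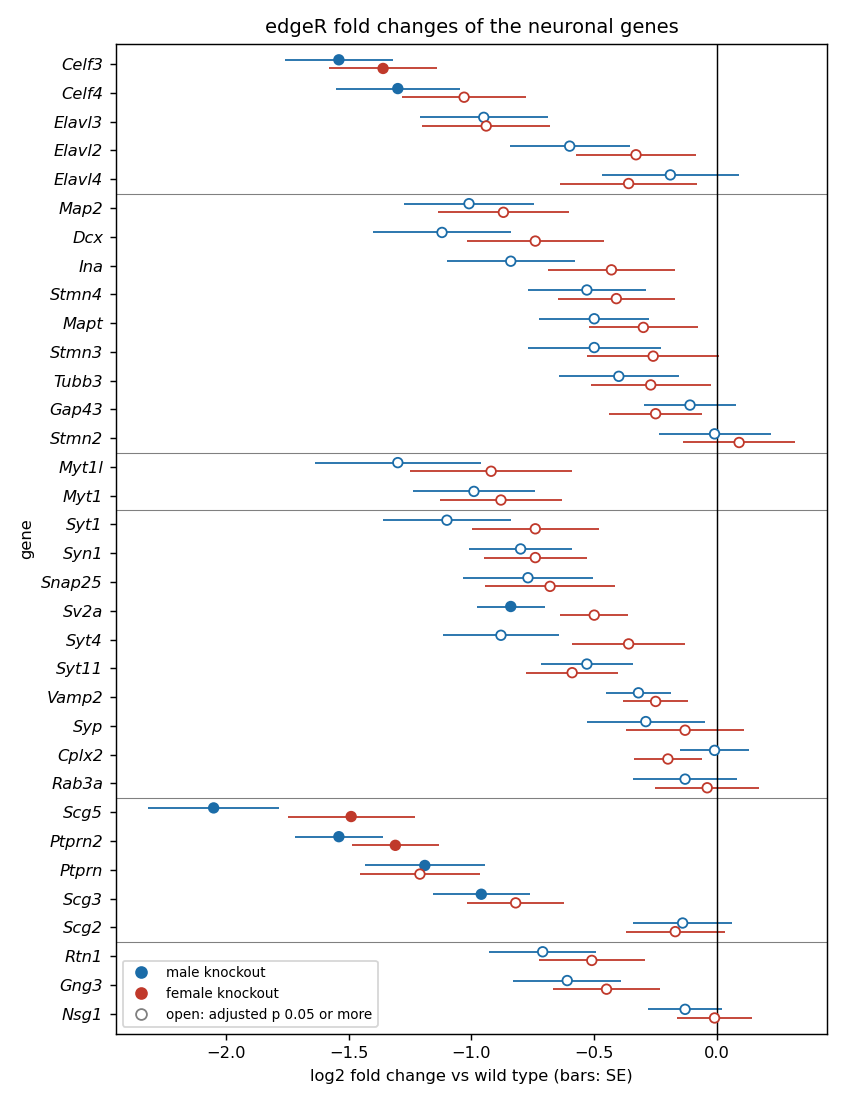
edgeR log2 fold change of each member against wild type in the male (blue) and female (red) knockout, with bars for 1 SE, where filled points have an adjusted p under 0.05. Filled points are 7 in the male and 3 in the female, all to the left of 0, and 4 of the 7 are granule genes.

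Among the 10 vesicle and release genes 3 fell in the mean of the knockouts, with a median of -0.59. Sv2a, a vesicle membrane glycoprotein, had 47.1 and 48.7 CPM in wild type, 25.6 and 27.9 in male knockouts and 30.9 and 36.6 in female knockouts. The male libraries were lowest, the female ones between, and no groups overlapped. It changed by -0.84 in the male (SE 0.139, adjusted p = 0.0243, edgeR) and by -0.5 in the female, which did not pass (SE 0.138, adjusted p = 0.124). The difference between the sexes of knockout, 0.34 (SE 0.14), did not pass either.

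Syt1, the calcium sensor of fast release, had 35.7 and 41.8 CPM in wild type, 15.7 and 20.4 in male knockouts and 16.5 and 29.8 in female knockouts. It fell in the mean (-0.92, SE 0.217, adjusted p = 0.0475, edgeR). Syn1, which tethers vesicles to the cytoskeleton and holds the RE1-type match shown above, had 22 and 21.2 CPM in wild type, 11.1 and 13.7 in male knockouts and 10.5 and 15.4 in female knockouts. Every knockout library of both genes was below both wild-type libraries. Syn1 fell in the mean by 0.77 on the log2 scale (SE 0.176, adjusted p = 0.0429, edgeR).

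The other 7 genes of this role did not pass. The SNARE genes Snap25 and Vamp2 were at -0.72 (adjusted p = 0.0984, edgeR) and -0.28 (adjusted p = 0.164) in the mean, and in both all knockout libraries lay below wild type. Snap25 had 22.3 and 35.2 CPM in wild type and 15, 18.7, 14.2 and 21.6 in mko1, mko2, fko1 and fko2, and Vamp2 had 86.8 and 96.7 against 70.2, 76.6, 72.9 and 81.7. Syt11 and Syt4 are synaptotagmins that do not drive fast release. Syt11 had 126 and 150 CPM in wild type and 78, 113, 87.8 and 95.9 in the knockouts (-0.56), and Syt4 had 36 and 44.6 against 20.8, 23, 23.3 and 39.3 (-0.62), where fko2 lay inside the wild-type range. At the other end stood Syp, Rab3a and Cplx2. Syp, which encodes the vesicle marker synaptophysin, had 46.3 and 45 CPM in wild type and 26.2, 48.2, 43.9 and 39.8 in mko1, mko2, fko1 and fko2. Only mko1 was far from wild type, and the mean change was -0.21 (SE 0.206, adjusted p = 0.53, edgeR). Rab3a, the small GTPase of vesicles, had 41.6 and 34.6 CPM in wild type and 26.9, 42.9, 35.5 and 38.6 in the knockouts (-0.08). Cplx2, a complexin that clamps fusion, had 80 and 91.2 against 77.9, 91.7, 72.5 and 76.1 (-0.11). Wild-type and knockout values overlapped in both, and in both mko2 was the highest of all 6 libraries.

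The granule genes had the highest share of calls, 4 of 5 in the mean and in the male knockout and 2 of 5 in the female knockout, with a median of -1.2 in the mean. Scg5, which encodes the chaperone of the peptide-processing enzyme PC2, had 36.9 and 60.6 CPM in wild type, 9.27 and 14.2 in male knockouts and 17.2 and 17.5 in female knockouts. Its wild-type values were far apart, yet every knockout library was below the lower of them. The change was -2.05 in the male (SE 0.267, adjusted p = 0.0151, edgeR) and -1.49 in the female (SE 0.259, adjusted p = 0.0401), and in the mean Scg5 was 3.42-fold lower. This was the most negative value among the 34.

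Ptprn2 and Ptprn encode the granule membrane proteins phogrin and IA-2. Ptprn2 had 43.4 and 47.4 CPM in wild type, 14.2 and 17 in male knockouts and 15.5 and 21 in female knockouts. Its libraries agreed closely within groups, and it changed by -1.54 in the male (SE 0.18, adjusted p = 0.0151, edgeR) and by -1.31 in the female (SE 0.178, adjusted p = 0.0193). Ptprn had 14.2 and 15.7 CPM in wild type, 4.91 and 8.1 in male knockouts and 6.07 and 6.85 in female knockouts. It changed by about the same amount in both, -1.19 in the male (SE 0.244, adjusted p = 0.0437, edgeR) and -1.21 in the female (SE 0.244), where it missed the threshold (adjusted p = 0.0557).

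Scg3, a granin-binding protein of the granule membrane, had 60.9 and 63.1 CPM in wild type, 25.3 and 38.2 in male knockouts and 31.5 and 39 in female knockouts. It fell in the male (-0.96, SE 0.198, adjusted p = 0.0443, edgeR), and the female value was -0.82 (SE 0.197, adjusted p = 0.0942). Scg2, secretogranin II, was the granule gene outside this pattern. It had 8.24 and 7.04 CPM in wild type, 6.4 and 7.47 in male knockouts and 6.46 and 7.11 in female knockouts, so the groups overlapped (mean -0.15, SE 0.174, adjusted p = 0.586, edgeR). Scg2 and Ptprn had the fewest counts among the 34.

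None of the 3 membrane and signalling genes passed. Rtn1, a reticulon of the endoplasmic reticulum, had 216 and 199 CPM in wild type, 99.1 and 155 in male knockouts and 127 and 165 in female knockouts. Gng3, a neuronal G protein gamma subunit, had 67.5 and 58.3 CPM in wild type, 30.5 and 51.8 in male knockouts and 46.1 in both female knockouts. In both genes all knockout libraries lay below wild type, with mean changes of -0.61 (SE 0.183, adjusted p = 0.0948, edgeR) and -0.53 (SE 0.186, adjusted p = 0.13). Nsg1, an endosomal protein that sorts receptors, was at -0.07, with 207 and 186 CPM in wild type and 159, 201, 202 and 189 in mko1, mko2, fko1 and fko2, where all but mko1 lay inside the wild-type range.

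Set by broad role, 4 of the 14 cytoskeletal and RNA-binding genes and 7 of the 15 vesicle and granule genes fell in the mean of the knockouts, with medians of -0.47 and -0.67. The difference between the roles was not tested. Both wild-type libraries lay above all 4 knockout libraries in 21 of 34 members, which is 7 of the 14 and 10 of the 15, beside 20.1% of all tested genes.

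The female and male knockouts were compared directly for all 34 members. None passed in edgeR, where 0.0344% of all tested genes did, and DESeq2 also called none. At an unadjusted p under 0.05 there was 1, the vesicle gene Sv2a, higher in the female. The share of all tested genes under that threshold was not counted, so Sv2a is not read as a difference between the knockouts. The median difference was 0.14 (female minus male, log2), from -0.19 in Cplx2 to 0.56 in Scg5 (SE 0.27). This median turned sign with single libraries left out, to -0.09 without mko1 and -0.06 without fko2, and was 0.41 without mko2 and 0.3 without fko1. The X-linked members Dcx, Syn1 and Syp were at 0.37 (SE 0.278), 0.06 (SE 0.214) and 0.17 (SE 0.241), inside the range of the other members. These errors leave room for differences of a size that this design could not call.

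Within each library set a knockout library can be set against the wild-type library of the same set. Of the 34 members 26 were lower in all 4 such ratios, 6 in 3, 1 in 2 and 1 in fewer, where 29.6% of all tested genes were lower in all 4. The 8 that were not lower in all 4 were Elavl4, Stmn2, Gap43, Syp, Rab3a, Cplx2, Scg2 and Nsg1. The median log2 ratio of the 34 was -0.42 for mko2 over wt1, -0.62 for fko1 over wt1, -1 for mko1 over wt2 and -0.42 for fko2 over wt2, beside 0.01 to 0.02 over all tested genes. The 2 male libraries thus differed by more than the 2 female ones in their own sets. With the set as a term in the edgeR fit, 23 members fell in the mean of the knockouts, 23 in the male and 16 in the female, against 16.3%, 12.7% and 11.1% of all tested genes. The 11 genes called in the mean in that fit and not in the first were Stmn3, Stmn4, Dcx, Ina, Myt1l, Snap25, Syt4, Syt11, Vamp2, Rtn1 and Gng3.

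**Figure D3:**
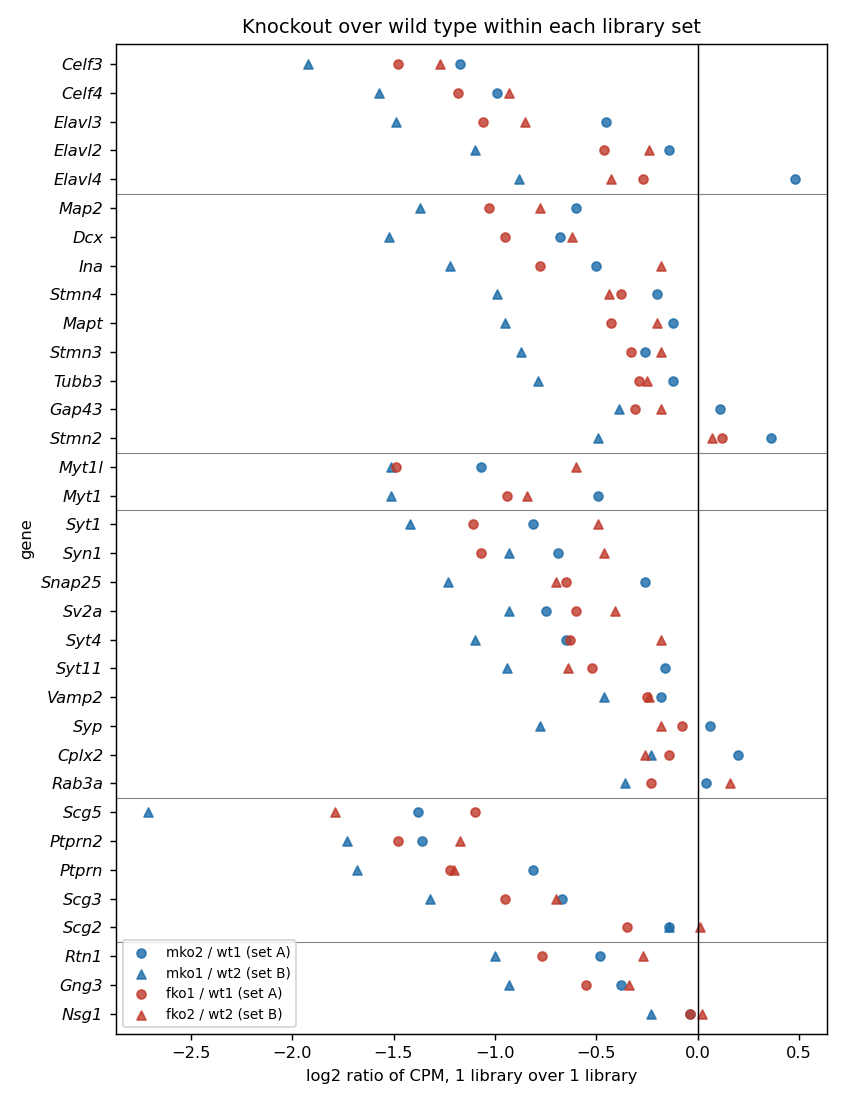
log2 ratio of 1 knockout library over the wild-type library of the same set for each member, blue for male and red for female, circles for the set with wt1 and triangles for the set with wt2. All 4 points lie left of 0 for 26 of 34 genes, against 29.6% of all tested genes, and the blue triangle (mko1 over wt2) is the leftmost point in most rows.

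Other genes of the same machinery were also lower. Their lists, and those of cell types below, were chosen with earlier results of these data known. They are descriptions and not independent support. Of 44 further vesicle and granule genes 13 fell and none rose in the mean of the knockouts (median -0.56). In edgeR 8 were lower in the male and 0 in the female. Of all tested genes 4.04% fell in the mean, 1.96% in the male and 0.82% in the female. Among them Chgb, the granin chromogranin B, fell from 23.1 and 27.8 CPM to 11.1 and 10.3 in the male knockout (-1.25, adjusted p = 0.0151, edgeR), and had 16.5 and 16.6 in the female. Resp18, another granule protein, was at -1.43 in the mean and Nrxn2, a presynaptic adhesion protein, at -1.14. Of the 42 ion channel and receptor genes 14 fell and none rose (median -0.7), among them the sodium channel genes Scn3a (-1.31) and Scn3b (-0.9), the potassium channel gene Kcnh2 (-1.32) and the nicotinic receptor gene Chrna4 (-1.16). Of 45 further structural and RNA-binding genes 17 fell and 1 rose (median -0.6). The gene that rose was the neurofilament gene Nefl, named after its values were seen, with 45 and 57.3 CPM in wild type and 81 to 154 in the knockouts (1.15, adjusted p = 0.0411, edgeR). Among those that fell, Nova2, Celf5 and L1cam were lower by 1.02 to 1.42 on the log2 scale. Of 26 genes of the switch to the neuronal state 4 fell (median -0.25).

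Markers of cell types moved with the members in different directions. Of 16 neural progenitor genes 12 fell (median -0.97), and the proneural factor Neurog2 went from 33.7 and 35 CPM in wild type to 9.4 and 10.4 in the male and 7.97 and 10 in the female knockout. Of 25 tested genes for subtypes of central neurons 13 fell (median -1.27), among them Barhl1, Barhl2 and Lhx5. Their summed level was 732 and 960 CPM in wild type and 415 to 556 in the knockouts. Of 25 tested genes of peripheral neurons 2 fell and 3 rose (median 0.4). The 2 that fell, Ddc and Th, encode enzymes of catecholamine synthesis. Among the 3 that rose, Scn10a, a sodium channel gene of pain-sensing neurons, rose by 1.6. Tlx3, a transcription factor of sensory neurons named after its values were seen, rose by 1.18. The summed peripheral list was 414 and 498 CPM in wild type, 500 to 700 in the knockouts and highest in mko2. The members are expressed by both kinds of neuron, and the part of either kind in their change was not tested.

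Other lists bear on the mixture. Crest mesenchyme had 1 gene higher of 17 (Twist2, 0.9) and Schwann and glial genes 1 lower of 11 (Pou3f1, -1.05). The Schwann and glial list had no common direction, with a median of -0.02 and 6 of 11 changes negative. In that list Sox10 was at 0.27 and did not pass. Over all 14521 tested genes, 156 were higher and 586 lower in the mean of the knockouts. The mesenchyme list had a median of 0.23, with 2 of 17 changes negative, but its summed level did not rise throughout. The sum was 5000 and 4960 CPM in wild type and 5180, 4480, 4190 and 4440 in mko1, mko2, fko1 and fko2. A large part of it was the collagen gene Col1a1 (-0.59). Col1a1 had 1150 and 1230 CPM in wild type and 1010, 753, 641 and 776 in the knockouts in that order. Erythroid markers summed to 1360 CPM in mko2 against 311 to 515 in the other libraries, with none of 6 tested past the threshold and Hba-a1 at 0 in all 6 libraries. Leukocyte, endothelial and epithelial markers summed to at most 27.3 CPM in any library, with none called, and of 5 tested muscle genes Des fell from under 2 CPM. The part of these cells in the members' values was not tested.

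**Figure D4:**
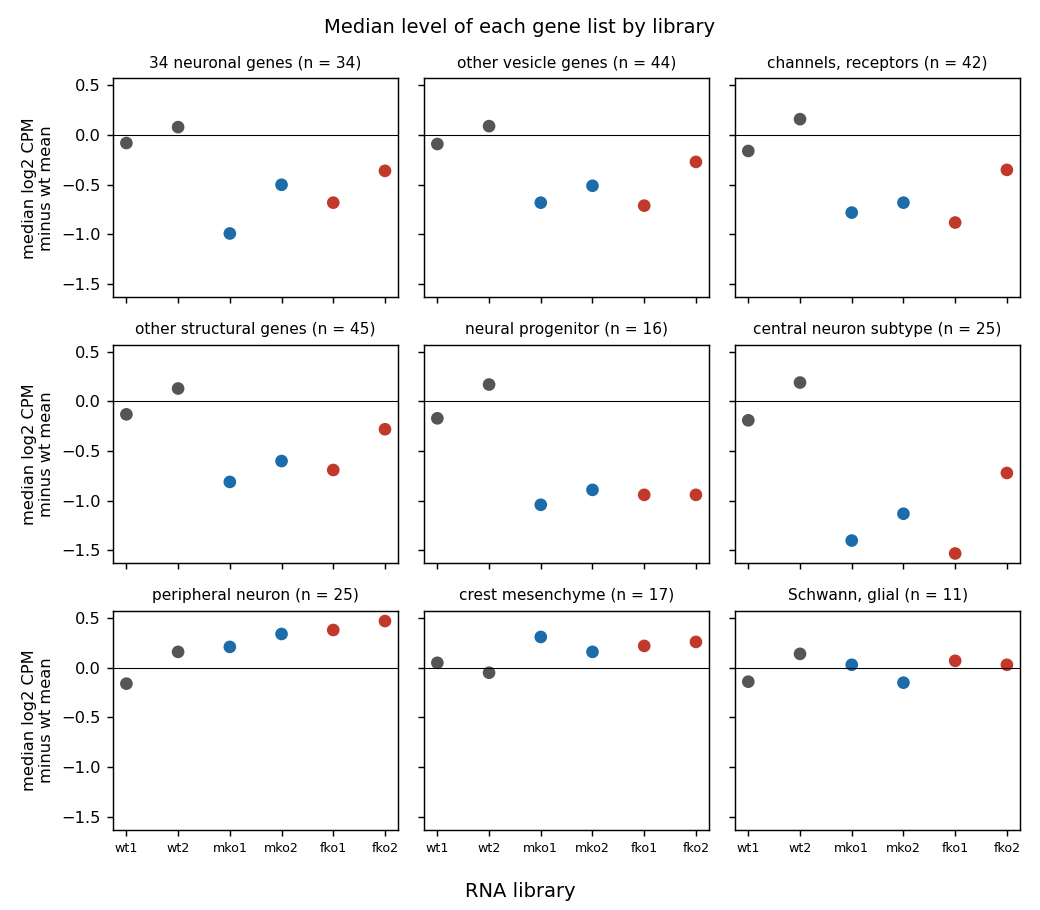
Median over each gene list of log2 CPM minus the gene's wild-type mean, in each library (grey wild type, blue male knockout, red female knockout). The 34 neuronal genes, the further vesicle, channel and structural genes and the central neuron and progenitor genes lie below 0 in all 4 knockout libraries, while peripheral neuron and mesenchyme genes lie above 0 there.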

How the data were processed

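RNA was sequenced from 6 libraries, and the deposited table holds the authors' raw read counts per gene, made with HTSeq on mm9 alignments, per the submitters' processing notes, which also name Trimmomatic and TopHat2 without versions. The kit was stranded, per the labels' protocols, and the strand setting of the counter is not given in the sources used here. HTSeq summary lines were left out of library sizes. Genes were filtered with filterByExpr, scaled with TMM and tested across 14521 genes over all 6 libraries with edgeR 4.0.16 (R 4.3.3) by the quasi-likelihood test with Benjamini-Hochberg adjustment at 0.05. CPM are TMM-scaled. DESeq2 1.42.0, RLE factors, plain totals without Rn45s, no filter, a replicate block, the library set as a term, only the groups compared and leaving out each library were tried. Members and lists were chosen with earlier results of these data known. Members were described with tests if called in any comparison with wild type, otherwise the smallest p until 2 per role were described, and alternatives were run for these 16. The other members are given with their values from the same fit and no alternatives, and 4 genes of each other list were named by smallest p. Upstream windows are RefSeq's on GRCm38.p6. Histone and UTX peaks were not used here, since they are on mm9. Some genes that the naming rule picked are not reported here.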

Additional observations from a re-analysis of the deposited data

How the results depend on the processing

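Numbers of members called lower, in the female, male and mean comparisons with wild type, were 3, 7 and 12. DESeq2 gave 9, 17 and 19, the replicate block 9, 16 and 19, and the library set as a term 16, 23 and 23. Over all tested genes the lower calls, in the same order, were 119, 285 and 586 in the first fit. They were 384, 606 and 774 with DESeq2, 262, 412 and 661 with the replicate block, and 1617, 1845 and 2361 with the set. With only the groups compared in the fit, 0 and 18 members were called in the female and male, beside 25 and 741 of all tested genes. The mean already uses all 6 libraries. Without a filter on low counts the mean gave 7 members, beside 464 of all genes fitted. RLE factors and plain totals without Rn45s stayed within 1.5 times of the member counts given first. Leaving out each library in turn gave 1 to 17 in the female, 0 to 18 in the male, 4 to 20 in the mean and 0 to 0 in the female against the male, where the other alternatives also called 0; a lone library left in a group was assumed to vary like the others. The replicate numbers follow the library sets in wild type and female (wt1 with fko1, wt2 with fko2) and are swapped in the male. Deviations of libraries with the same number correlated by -0.237 (wild type and male), 0.426 (wild type and female) and -0.231 (male and female). Over the described members 442 alternative fold changes kept their side of the threshold, 57 lost it, 109 gained it and 0 reversed. The cause was not tested. Read depth was not varied.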
